A study of Arabidopsis thaliana with 4 samples.

Results

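Genes of sugar movement and carbon shortage were followed in Arabidopsis plants that lack green colour. They were SAG29 (AT5G13170), also called SWEET15, AKINBETA1 (AT5G21170), MCCA (AT1G03090) and DPE1 (AT5G64860). Each was taken as the probe set annotated to that gene alone, which gave 4 probe sets, 1 a gene, of the 22746 on the array and of 13356 genes with a probe set of their own. All 4 had been picked from differences between albino and control plants on these same arrays. Their values are therefore a description, without a test.

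The albino group was albino segregants of a line named DS 13-2198-1 (2 arrays), and the control group was segregants of normal appearance from the same parental line (2 arrays). Both kinds were 3 weeks old and shared plates, whose diluted Murashige and Skoog medium held 2% sucrose, at 23 °C with 16 h of light and 8 h of dark, so albino and control plants alike had sugar from outside. The labels name no disrupted gene, which left no transcript to check the titles by, do not give the genotype of the normal segregants, and describe all 4 samples as wild type in their free text. Groups follow the titles. Nothing in the labels says whether replicates came from different plants, so any spread between arrays may be technical.

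A plant that cannot fix carbon depends on stored or imported sugar. SWEET proteins let sugars pass through membranes down their gradient, and SAG29 is a sucrose-transporting member known from senescing leaves, seeds and stressed roots. The SnRK1 kinase senses low energy and turns on catabolism, with AKINBETA1 as one of its regulatory beta subunits. MCCA is the biotin-carrying subunit of 3-methylcrotonyl-CoA carboxylase, a mitochondrial enzyme of leucine breakdown that plants use when carbohydrate runs short. DPE1 is the plastid disproportionating enzyme, which handles maltotriose released from starch.

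All values below are log2 expression values from RMA, so a difference of 1 is a doubling, and differences are albino minus control. Replicate 1 and replicate 2 each supplied a pair of arrays, 1 albino and 1 control. Value distributions were nearly equal within a pair (quantile gaps of at most 0.07 and 0.09) and differed by up to 0.35 between pairs, so differences are given within each pair as well as over both. Across all probe sets the differences had an SD of 0.60 in pair 1 and 0.36 in pair 2.

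SAG29 was lower in albino than in control plants in both pairs. Its expression value was 6.60 and 6.32 in albino replicates 1 and 2, against 8.24 and 8.59 in control replicates 1 and 2. Both albino arrays lay well below both control arrays, and the gap between the groups was several times the gap within either. Group means were 6.46 ± 0.20 in albino and 8.42 ± 0.25 in control plants (SD, n = 2 each), a difference of -1.96 (SE 0.28). On the linear scale the albino signal was 32% of control in pair 1 and 20.7% in pair 2.

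The 2 pairs placed SAG29 differently among all probe sets. Its difference of -1.64 in pair 1 was -2.75 SD from zero and ranked 278th from the lowest of 22746. In pair 2 the difference of -2.27 was -6.25 SD from zero and was the lowest of all 22746. At least 2-fold lower values in both pairs were found for 219 probe sets, or 0.963% of the array, of which SAG29 is one. In whole plants, fewer cells of a type that expresses a gene and less transcript per cell cannot be told apart.

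AKINBETA1 was the member with the highest values in albino relative to control plants. It stood at 10.09 and 10.13 in albino replicates 1 and 2, against 9.01 and 9.64 in control replicates 1 and 2. The albino arrays were nearly equal, the control arrays were spread, and the groups did not overlap. Means were 10.11 ± 0.03 in albino and 9.33 ± 0.45 in control plants (SD, n = 2 each), and the difference of 0.78 (SE 0.31) was made of 1.08 in pair 1 and 0.49 in pair 2. Without control replicate 1, the lowest of the arrays, it was 0.47.

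DPE1 was higher in the albino array of each pair, but the groups overlapped. Values were 8.18 and 8.62 in albino replicates 1 and 2, against 7.38 and 8.23 in control replicates 1 and 2. Control replicate 2 thus lay just above albino replicate 1. The pair differences were 0.81 and 0.39, with a mean of 0.60 (SE 0.38), and group means of 8.40 ± 0.31 in albino and 7.80 ± 0.60 in control plants (SD, n = 2 each). Leaving out control replicate 1 lowered the difference to 0.17, and leaving out control replicate 2 gave 1.02.

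MCCA was higher in the albino array of pair 1 and nearly level in pair 2. It had 9.49 and 9.66 in albino replicates 1 and 2, against 9.00 and 9.65 in control replicates 1 and 2. Albino and control plants of replicate 2 were within 0.01 of each other, so the mean difference of 0.25 (SE 0.32) came from the 0.49 of pair 1. Group means were 9.57 ± 0.12 in albino and 9.32 ± 0.46 in control plants (SD, n = 2 each), closer than the control arrays were to each other. Without control replicate 1 the sign turned, to -0.07.

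**Figure D1:**
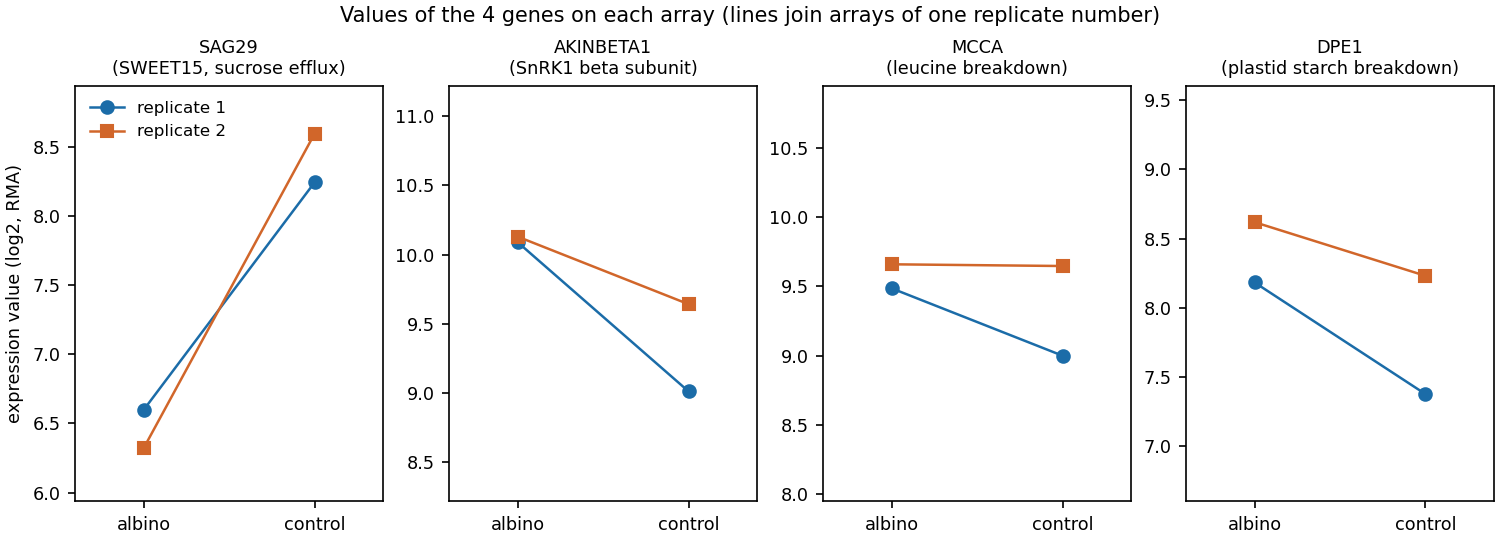
Log2 expression values (vertical axis, each panel spanning the same number of units) of SAG29, AKINBETA1, MCCA and DPE1 in albino and control plants, with a point per array and a line joining the arrays of a replicate number. SAG29 lies between 6.32 and 6.60 in albino and between 8.24 and 8.59 in control plants, and control replicate 1 is the lowest point for the other genes.

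AKINBETA1, MCCA and DPE1 thus shared an arrangement in which control replicate 1 was lowest. For each of them the difference in pair 1 exceeded that in pair 2, as did the spread of differences over the whole array. In units of that spread AKINBETA1 stood at 1.80 SD in pair 1 and 1.34 SD in pair 2, and DPE1 at 1.35 and 1.07 SD. These positions were ordinary beside that of SAG29, with 648 and 1414 as the ranks of AKINBETA1 from the highest difference in pairs 1 and 2. Of the 4 genes, 3 were higher and 1 lower in both pairs (34.6% and 28.5% of all probe sets), MCCA by only 0.01 in pair 2, and 1 was higher and 1 lower without overlap between groups (16.2% and 13.6% of all probe sets). The contrast chose these genes, so nothing is read from these counts. None of the 4 was among the dimmest 25% of probe sets.

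**Figure D2:**
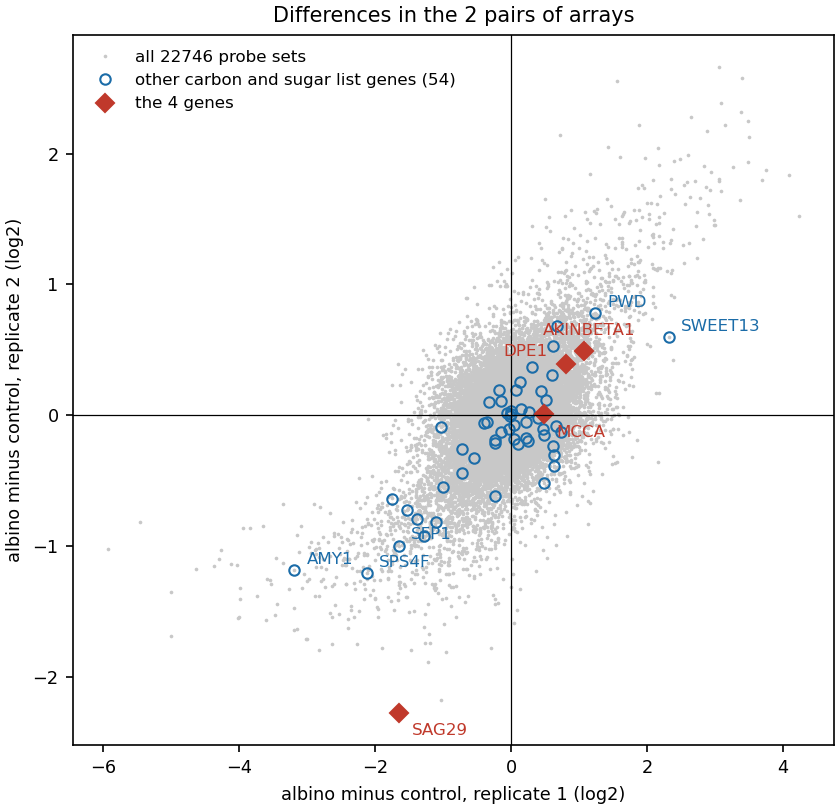
Albino minus control difference (log2) in the pair of replicate 1 (horizontal axis) against the pair of replicate 2 (vertical axis) for all 22746 probe sets (grey), 54 other genes of carbon and sugar lists (blue rings) and the 4 genes (red diamonds). SAG29 has the lowest value on the vertical axis, -2.27, while AKINBETA1, DPE1 and MCCA lie within the main cloud.

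Genes of the same pathways were then read from 13 lists of sugar transport, starch and sucrose metabolism, energy signalling, amino acid breakdown, autophagy and senescence. Besides the 4, 54 of their 291 genes had a probe set of their own. With limma over all 22746 probe sets, 0 of the 54 passed an adjusted p of 0.05 as higher and 0 as lower (0% of all probe sets in each direction). At an unadjusted p under 0.05 there were 3 higher and 8 lower, against 609 and 701 of all probe sets (2.68% and 3.08%), and once replicate number entered the fit as a block 4 and 10, against 1631 and 1712 (7.17% and 7.53%). Of the 54, 13 were higher and 21 lower in both pairs, where the whole array had 34.6% and 28.5%. The 54 had a median of -0.01 (pair 1, 0.03; pair 2, -0.10), beside 0.02 over all probe sets. Single genes are therefore given by their differences and standard errors, and none of them passed.

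Of the SWEET transporters, 16 of 17 were measured. Among the 15 besides SAG29, 6 were higher and 4 lower in both pairs, where the whole array had 34.6% and 28.5%. The counts lie near these shares, so nothing about the family is read from them. The 15 had a median difference of 0.12 and a range from -1.10 to 1.46. SWEET11, a sucrose exporter that loads the phloem of leaves, stood at 10.51 and 10.67 in albino replicates 1 and 2, against 9.90 and 10.14 in control replicates 1 and 2. Its difference of 0.57 (SE 0.26) was positive and of like size in both pairs, 0.62 and 0.53.

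SWEET13, another sucrose transporter, was higher by 1.46 (SE 0.44). It had 5.91 and 5.15 in albino replicates 1 and 2, against 3.59 and 4.55 in control replicates 1 and 2. The groups did not overlap, but the pairs differed in size, with 2.32 and 0.60. SWEET2, which moves sugar into the vacuole and is known from roots, followed SAG29 in sign, with 5.16 and 5.91 in albino against 6.43 and 6.83 in control replicates 1 and 2. Its difference was -1.10 (SE 0.35), the lowest of the family after SAG29.

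The vacuolar hexose transporters SWEET16 and SWEET17 differed by 0.32 (SE 0.25) and -0.21 (SE 0.25). The sign differed between pairs for the hexose transporters SWEET1 (0.63 and -0.39) and SWEET4 (0.73 and -0.13), and for SWEET6 (0.66 and -0.08). SWEET10, a sucrose transporter linked to flowering, was at -1.03 in pair 1 and -0.09 in pair 2. Pairs therefore disagreed in size or sign for much of the family. SWEET3 and SWEET8 differed by 0.13 (SE 0.33) and 0.31 (SE 0.32). SWEET5, SWEET7, SWEET9 and SWEET14 were among the dimmest 25% of probe sets, where RMA compresses differences, and lay between -0.11 and 0.10.

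**Figure D3:**
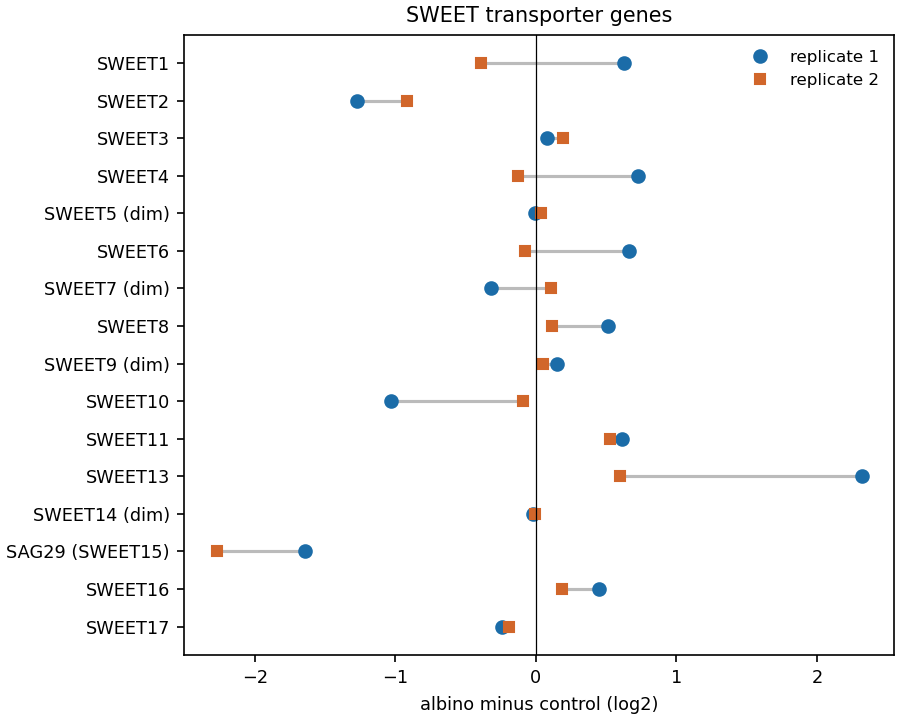
Albino minus control difference (log2, horizontal axis) of each measured SWEET gene (rows) in the pair of replicate 1 (blue circles) and of replicate 2 (orange squares), with "dim" marking genes among the dimmest 25% of probe sets. SAG29 is far left in both pairs (-1.64 and -2.27), SWEET2 is left of zero in both (-1.27 and -0.92), and SWEET11 and SWEET13 are right of zero in both.

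Other sugar carriers were few, with 5 of 40 listed genes measured. SFP1 and SFP2, neighbouring genes for sugar carriers of the monosaccharide transporter superfamily, went opposite ways. SFP1 had 8.51 and 9.03 in albino replicates 1 and 2, against 10.16 and 10.03 in control replicates 1 and 2. SFP2 had 7.75 and 8.04 in albino replicates 1 and 2, against 7.07 and 7.35 in control replicates 1 and 2. The difference was -1.32 (SE 0.29) for SFP1 and 0.68 (SE 0.27) for SFP2, with the same sign in both pairs for each. The tonoplast sugar carriers TMT1, TMT2 and TMT3 lay between -0.02 and 0.02.

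The SnRK1 list had 3 of 13 genes measured, all of them beta subunits. AKINBETA2 (AT4G16360) had 7.62 and 7.76 in albino replicates 1 and 2, against 6.98 and 8.06 in control replicates 1 and 2. AKINBETA3 (AT2G28060), a short form of the subunit, had 6.66 and 7.75 in albino replicates 1 and 2, against 6.85 and 7.55 in control replicates 1 and 2. The groups overlapped for both, and the pairs had opposite signs. Their differences were 0.17 (SE 0.41) and 0.01 (SE 0.46), beside 0.78 for AKINBETA1. Whether the subunits differed from each other was not tested. The TOR partner RAPTOR1, the 1 measured gene of the sugar sensing list, differed by 0.09 (SE 0.26).

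In branched-chain amino acid breakdown, 9 of 21 listed genes were measured. Of the 8 besides MCCA, 2 were higher and 2 lower in both pairs, beside 34.6% and 28.5% of all probe sets. The 8 had a median of 0.18. MCCB, the partner subunit of MCCA in the same enzyme, had 10.92 and 10.45 in albino replicates 1 and 2, against 10.33 and 10.14 in control replicates 1 and 2. IVD, isovaleryl-CoA dehydrogenase, which acts just before that enzyme in leucine breakdown, had 9.96 and 9.92 in albino replicates 1 and 2, against 9.65 and 9.55 in control replicates 1 and 2. Groups did not overlap for MCCB or IVD, unlike MCCA, and 16.2% of all probe sets were likewise higher without overlap. The differences of MCCB and IVD were small, at 0.45 (SE 0.29) and 0.34 (SE 0.25).

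Electrons from IVD pass through an electron transfer flavoprotein to its oxidoreductase. The flavoprotein subunits ETFALPHA and ETFBETA differed by -0.23 (SE 0.27) and 0.19 (SE 0.44), and the oxidoreductase ETFQO by 0.19 (SE 0.33). ETFALPHA was lower without overlap between groups, as were 13.6% of all probe sets. D2HGDH, which feeds the same carriers from 2-hydroxyglutarate, differed by -0.06 (SE 0.44). The aminotransferase BCAT5, placed in this list though its part in breakdown was not checked, differed by -0.13 (SE 0.25). MMSDH, methylmalonate semialdehyde dehydrogenase of valine breakdown, was at 0.47 in pair 1 and -0.10 in pair 2. Among these 6 genes none was higher in both pairs, while MCCB and IVD were, as were 34.6% of all probe sets. MCCA, picked from this contrast, was higher by only 0.01 in pair 2.

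Starch breakdown had 3 of 23 listed genes measured, and the others besides DPE1 showed larger differences than it in opposite directions. The gene recorded as PWD (AT4G24450) had 8.16 and 8.24 in albino replicates 1 and 2, against 6.93 and 7.46 in control replicates 1 and 2. It was higher by 1.00 (SE 0.29), the pairs giving 1.23 and 0.78, and the groups did not overlap. The name PWD is that of the gene record, and whether this locus encodes the PWD of starch breakdown was not checked. AMY1, an alpha-amylase that is secreted and so acts outside the plastid, had 5.17 and 7.30 in albino replicates 1 and 2, against 8.36 and 8.48 in control replicates 1 and 2. That was a difference of -2.19 (SE 0.68), the lowest of the 58 measured genes of all these lists, with -3.19 in pair 1 and -1.19 in pair 2. DPE1 and AT4G24450 were thus higher in both pairs and AMY1 lower, as were 34.6% and 28.5% of all probe sets. DPE1 was itself picked from this contrast.

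Starch synthesis was represented by 3 of 17 genes, from APL3, a large subunit of ADP-glucose pyrophosphorylase, at -0.43 (SE 0.28) to the branching enzyme SBE2.2 at 0.19 (SE 0.30). Of the genes of sucrose synthesis and cleavage 2 of 28 were measured. SPS4F, a sucrose phosphate synthase, had 4.73 and 6.13 in albino replicates 1 and 2, against 6.86 and 7.34 in control replicates 1 and 2. Its difference of -1.67 (SE 0.50) had the sign of SAG29 in both pairs, while CWINV6, of the cell wall invertase family, differed by -0.01 (SE 0.33) with opposite signs in the pairs. Without albino replicate 2, a fit with a single albino array that is assumed to vary like the control arrays, AMY1 (adjusted p = 0.00521) and SPS4F (adjusted p = 0.0324) passed limma's test as lower. They were 2 of 152 probe sets called lower in that fit (0.668% of the array). No other fit without 1 array called any probe set.

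Of 26 dark-inducible and starvation-responsive genes 3 were measured, and none was higher in both pairs. PPDK, pyruvate orthophosphate dikinase, differed by -0.22 (SE 0.26), and BZIP53, a transcription factor that works with SnRK1 signalling, by 0.17 (SE 0.31) with opposite signs in the pairs. EXO, known as a brassinosteroid-responsive growth gene, had a difference of -0.78 (SE 0.33) and a negative sign in each pair. The trehalose 6-phosphate genes and the plastid sugar and phosphate transporters are not analysed here, since no probe set was paired with 1 of them alone.

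SAG29 is named for senescence, and 3 of 25 other listed senescence genes were measured. All 3 had lower values in both albino arrays than in either control array, as did 13.6% of all probe sets, and their median was -1.09 (pair 1, -1.39; pair 2, -0.79). WRKY53, a transcription factor of early leaf senescence, had 5.48 and 6.34 in albino replicates 1 and 2, against 7.01 and 7.06 in control replicates 1 and 2. WRKY6, another such factor, had 7.17 and 7.19 in albino replicates 1 and 2, against 8.56 and 7.98 in control replicates 1 and 2. SAG101, an acyl hydrolase also known from immunity, differed by -0.96 (SE 0.28). Unlike SAG29, all 3 had the larger difference in pair 1.

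**Figure D4:**
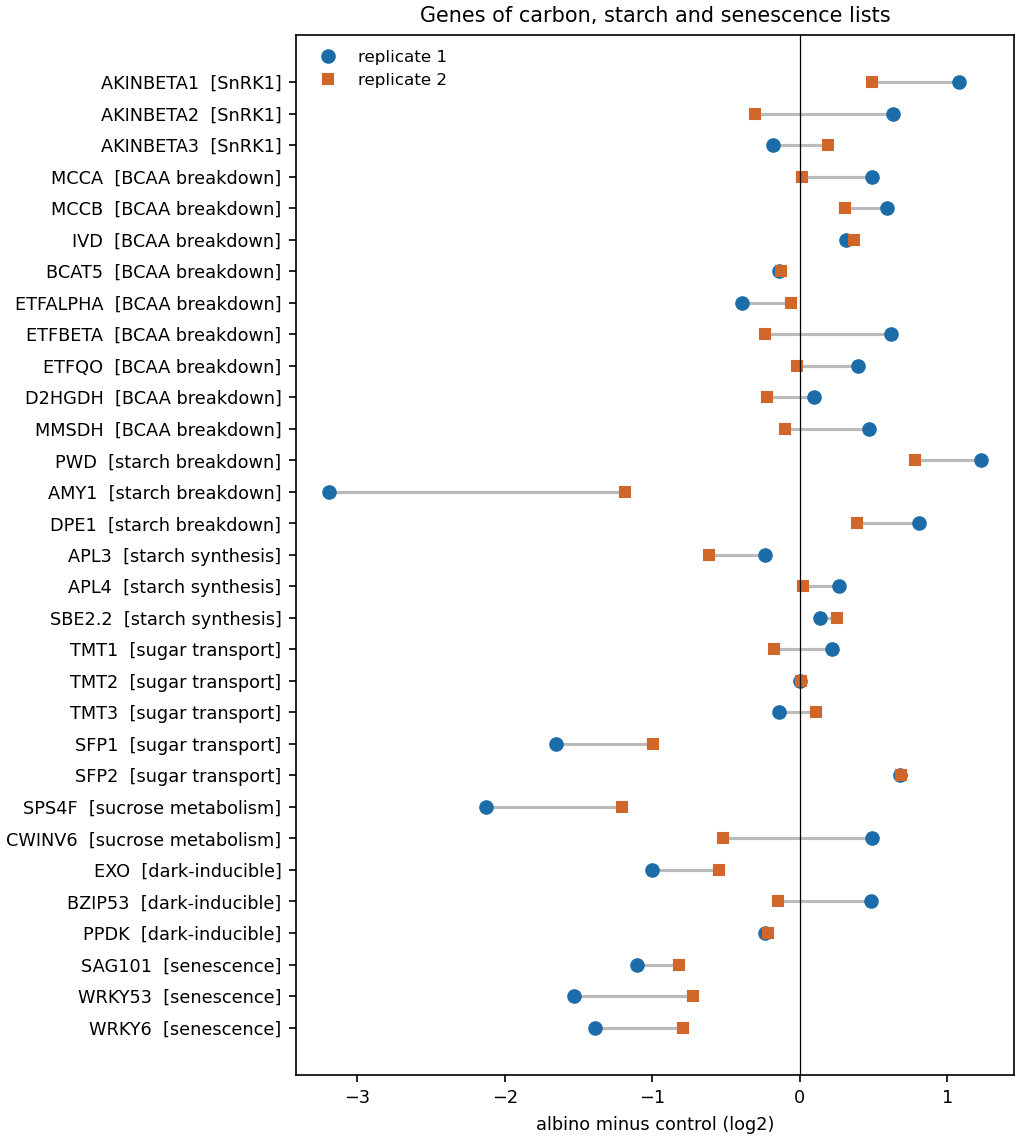
Albino minus control difference (log2, horizontal axis) in the pair of replicate 1 (blue circles) and of replicate 2 (orange squares) for the measured genes of 8 lists, named in brackets (BCAA, branched-chain amino acid). AKINBETA1, the gene recorded as PWD (AT4G24450), DPE1, MCCB and IVD lie right of zero in both pairs. AMY1, SPS4F, SFP1 and the senescence genes lie left of zero in both.

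Of the organ markers measured, PYK10 was lower in both pairs and the others were not. The root markers had 3 of 10 genes measured. Their summed linear signal was 514 and 1207 in albino plants, against 2364 and 1889 in control plants, carried by PYK10, an abundant root beta-glucosidase (pair 1, -2.29; pair 2, -0.67; both, -1.48 with SE 0.47). The root hair genes EXPA7 and EXPA18, both weak, differed by -0.28 (SE 0.35) and 0.22 (SE 0.27). The green shoot markers, 2 of 12 measured, summed to 12018 and 12232 in albino and 10910 and 11235 in control plants, with LHCB4.1 at 0.06 (SE 0.26) and RCA at 0.21 (SE 0.25). Seed and flower markers are not analysed here, as 0 of 7 and 0 of 5 had a probe set of their own. The part of organ proportions in these results was not tested.

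For each of the 4 genes, the 3 genes with the most similar values were found, by Euclidean distance over 4 arrays after each gene was centred on its own mean. Closest to SAG29 were AT4G30670 (distance 0.46), the plastid ribosomal protein gene rpl36 (0.62) and AT2G37750 (0.65). AT4G30670 had 5.32 and 5.11 in albino replicates 1 and 2, against 6.58 and 6.84 in control replicates 1 and 2. Its difference was -1.26 in pair 1 and -1.74 in pair 2, and that of rpl36 was -1.22 and -1.88. Both were larger in pair 2, as for SAG29, while AT2G37750 had the larger in pair 1 (-1.66, against -1.36 in pair 2). These genes were chosen by likeness on the same arrays, so nothing is read from a shared pattern. Values were not scaled, so the distance grows with the size of a gene's difference and cannot be compared between the 4. Distances ran from 0.03 to 0.08 for AKINBETA1 (AT1G73440, AT2G39000 and AT3G03590), from 0.03 to 0.04 for MCCA (AT2G46000, AT1G25370 and AT4G04370) and from 0.06 to 0.07 for DPE1 (AT1G73090, AT5G54910 and TTN9).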

How the data were processed

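Total RNA of 4 Arabidopsis samples was hybridised to single-colour arrays, cDNA being made from 16 µg of RNA per the labels' protocols. The authors deposited log2 values, 1 per probe set, made with RMA per the submitters' processing notes, which give no software or version. RMA carries no detection call. A table of the platform's annotation paired 13513 probe sets with 1 gene, 503 with several and 8730 with none, which are unnamed here. Of the 13513, 13436 matched a current TAIR10.1 gene record, used for names only. Differences were fitted with limma 3.58.1 in R 4.3.3 (lmFit, eBayes, two-sided) over all 22746 probe sets with 2 residual degrees of freedom, Benjamini-Hochberg adjustment and a threshold of 0.05. SEs come from that fit and include differences between replicate numbers. Precision is limited by the number of arrays.

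The 4 genes and the lists were chosen with earlier results of these data known. All measured genes of the SWEET, SnRK1, branched-chain, starch breakdown and dark-inducible lists are named, and of other lists the genes with the lowest and highest difference. Further genes named were chosen after their values were seen. The differences the fit estimates were checked on simulated data. Alternatives were quantile normalization of all arrays, leaving out the dimmest 25% of probe sets, other variance models, the replicate block, and each array left out in turn. Each of the 4 genes had 1 probe set, so averaging probe sets was not run.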

Additional observations from a re-analysis of the deposited data

How the results depend on the processing

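Counts of called probe sets, 0 higher and 0 lower with limma, held under the replicate block, quantile normalization, the filter on dim probe sets and the trended prior. With no variance moderation 1 was called lower. Over the fits without 1 array they ran from 0 to 30 higher and 0 to 152 lower, and list genes called lower from 0 to 2, the upper ends without albino replicate 2. List genes called higher stayed at 0 in all of these fits. Same-numbered arrays deviated together (Pearson's r = 0.66 across probe sets, which are not independent), but the labels do not say what a number marks. In this paired fit with the replicate block the smallest adjusted p was 0.217, against 0.59 without it, with 0 higher and 0 lower, and the SAG29 difference was again -1.96 (SE 0.22). Quantile normalization gave -1.95 for SAG29, 0.81 for AKINBETA1, 0.27 for MCCA and 0.60 for DPE1. Without 1 array the differences ran from -2.13 to -1.78 for SAG29, 0.47 to 1.098 for AKINBETA1, -0.07 to 0.57 for MCCA and 0.17 to 1.02 for DPE1. The causes of these changes were not tested.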

Other observations

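Autophagy recycles cell contents when carbon is short, and 10 of 36 listed genes of it were measured. All but ATG3 were genes of the ATG8 family. None was higher in both pairs of arrays and 6 were lower in both, where the whole array had 34.6% higher and 28.5% lower. With limma 0 passed, while at an unadjusted p under 0.05 there was 1 lower (2 with the replicate block) and 0 higher, where all probe sets had 3.08% lower (7.53% with the block) and 2.68% higher. The lowest was ATG8H, one of the ubiquitin-like proteins that coat the autophagosome, with 6.08 and 7.23 in albino replicates 1 and 2, against 7.84 and 7.87 in control replicates 1 and 2. Its difference was -1.20 (SE 0.42), -1.76 in pair 1 and -0.64 in pair 2. Other ATG8 genes spanned -0.59 (SE 0.26) for ATG8D to 0.03 (SE 0.27) for ATG8E, the highest of the list. The list's median was -0.13, beside 0.02 over all probe sets.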
